A study of Rattus norvegicus with 23 samples.

Results

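The mitochondrial carriers are the genes described here. They were taken as every gene whose single symbol on the array begins with Slc25a and a number, together with Ucp2 and Ucp3, and each gene was read through its probe set of highest mean level. This gave 42 genes of the 14217 genes with a symbol of their own, and these 42 genes had 61 probe sets, with several probe sets for 13 genes. The levels are log2 intensities from Affymetrix arrays of male rat kidney, so a difference of 1 is a doubling. The 23 arrays fall into 4 groups by strain, SBN/y or SBH/y, and by the number of kidneys, with 5 SBN/y and 6 SBH/y rats that had 2 kidneys, and 6 rats of each strain after removal of the right kidney. All rats were male, were 4 months old, ate standard rat chow and drank water freely, and the operated rats were studied 3 months after surgery. The labels give no other treatment, transgene or allele, and whether the rats with 2 kidneys had a sham operation is not given in the sources used here. SBN/y and SBH/y come from the Sabra rat, bred to resist (SBN/y) or to develop (SBH/y) hypertension under salt loading, and the title of the study names proteinuria as its subject. Nothing in the labels says how the replicates were bred or housed, so p-values here reflect only how much these arrays varied, part of which may be technical.

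Mitochondrial carriers are small proteins of the inner mitochondrial membrane that exchange nucleotides, phosphate, carboxylic acids, amino acids and cofactors between the cytosol and the matrix. The adenine nucleotide translocators bring ADP in and ATP out, the ATP-Mg/phosphate carriers set the size of the adenine nucleotide pool and respond to calcium, and the uncoupling proteins and their relatives move protons or small anions. The proximal tubule, which makes up much of the kidney cortex, depends on oxidative metabolism to drive sodium reabsorption.

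Slc25a25 was known from earlier results of these data as the carrier with the strongest answer to kidney removal in SBN/y, and the bases before 1 of its annotated starts are printed to show a motif that lies there. Promoters in the RefSeq table of the GRCr8 build run from 250 bases before the annotated start, and 37 of the 42 carriers have one. The cAMP response element TGACGTCA, a palindrome that reads the same on both strands, was searched in the 250 bases before the start. It was found in 2 of the 37 carriers, which is 5.41% of them, and in 531 of 33469 promoters in the table, which is 1.59%. The carriers that hold it are Slc25a25 and Slc25a33, the pyrimidine nucleotide carrier. The table gives 1 start for each gene. The 250 bases before that of Slc25a25 lie at chr3:36116582-36116831 and those of Slc25a33 at chr5:165502974-165503223, both on the minus strand. Both windows lie inside the gene's annotated span, so the span begins further upstream than the start used here. They are written 5′ to 3′ with the motif in capitals.
Slc25a25: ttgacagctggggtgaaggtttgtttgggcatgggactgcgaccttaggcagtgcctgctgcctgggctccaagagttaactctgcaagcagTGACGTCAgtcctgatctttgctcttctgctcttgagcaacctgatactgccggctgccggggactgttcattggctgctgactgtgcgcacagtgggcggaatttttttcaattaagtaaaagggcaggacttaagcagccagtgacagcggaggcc
Slc25a33: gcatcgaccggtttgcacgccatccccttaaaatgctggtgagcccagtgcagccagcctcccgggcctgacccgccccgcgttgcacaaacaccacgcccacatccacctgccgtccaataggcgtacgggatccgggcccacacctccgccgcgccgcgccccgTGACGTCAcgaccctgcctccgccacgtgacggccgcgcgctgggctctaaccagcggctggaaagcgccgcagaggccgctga
A match is a description of letters in this window and not a site. The 2 carriers were called after kidney removal in different strains: Slc25a25 rose in SBN/y, and Slc25a33 fell in SBH/y. Without a call, Slc25a33 differed by 0.10 in SBN/y and Slc25a25 by 0.34 in SBH/y. Their levels over the 23 arrays had a Pearson r of 0.32, and of 0.55 after each group mean was taken off. Of the 10 genes named further on as most like Slc25a25, 9 had a promoter in the table and 1 holds the motif, Rcan1, an inhibitor of calcineurin.

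Kidney markers were bright on all arrays. Slc34a1, the proximal tubule phosphate transporter, read from 12.09 to 12.37 over the 23 arrays, Umod of the thick ascending limb from 12.32 to 12.58, and Aqp2 of the collecting duct from 9.80 to 10.98. Fewer cells of a type and less RNA per cell cannot be told apart in such whole-tissue samples. Markers of several cell types differed by group. The mean of the 4 macrophage markers was 6.86 on average in SBN/y with 2 kidneys, with arrays from 6.75 to 6.96, and 7.05 after kidney removal, with arrays from 6.93 to 7.39. The SBH/y value was 7.21 with 2 kidneys, from 7.15 to 7.28, and 7.63 after kidney removal, from 7.48 to 7.85, and 3 of its 4 markers rose with surgery. The mean of the 3 measured lymphocyte markers was 4.67, 4.72, 4.62 and 5.53 in the same order of groups, and all 3 rose in SBH/y after surgery. The 3 collecting duct markers averaged 8.56, 8.37, 8.80 and 8.48 in that order. In SBH/y their mean did not overlap between 2 kidneys (8.72 to 8.93) and 1 kidney (8.32 to 8.57), and Rhcg and Slc4a1 fell, by 0.37 (adjusted p 0.000123) and 0.43 (adjusted p 9.68e-05), while none of the 3 was called after surgery in SBN/y. Of the 2 podocyte markers measured, Nphs1 fell in SBH/y by 0.42 (adjusted p 0.0056), and Podxl differed by -0.25 (adjusted p 0.0545). Among the 5 proximal tubule markers, Slc5a12 was higher in SBH/y with 2 kidneys by 0.76 (adjusted p 1.69e-05). The other 4 differed by -0.14 to 0.11 there, without a call. The mean of the 5 proximal tubule markers was 10.05, 10.09, 10.19 and 10.20 in the same order of groups, and none of the 5 was called after surgery in either strain. The 3′ minus 5′ difference of the GAPDH probe sets, a measure of RNA integrity, was 0.35, 0.45, 0.46 and 0.53 in those groups. The part of these markers and of RNA integrity in the results that follow was not tested, except that the GAPDH difference was also fitted as a covariate.

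Most carriers read above the middle of the array: 36 of the 42 had a mean level above 4.66, the median of all probe sets, and 6 had a level below it. The brightest were Slc25a5, an adenine nucleotide translocator, at 12.02, Slc25a3, the phosphate carrier, at 11.58, and Slc25a4, the other translocator measured well, at 10.45. The dimmest were Slc25a31, the germ-cell translocator, at 2.98, Slc25a27 at 3.15 and Slc25a18 at 3.70. Probe sets differ in brightness, so these values do not rank the genes by abundance. The carriers were not equally steady from rat to rat. Slc25a25 had the largest pooled standard deviation within groups, 0.41, and Slc25a5 the smallest, 0.03, while the median over the 42 carriers was 0.12.

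**Figure D1:**
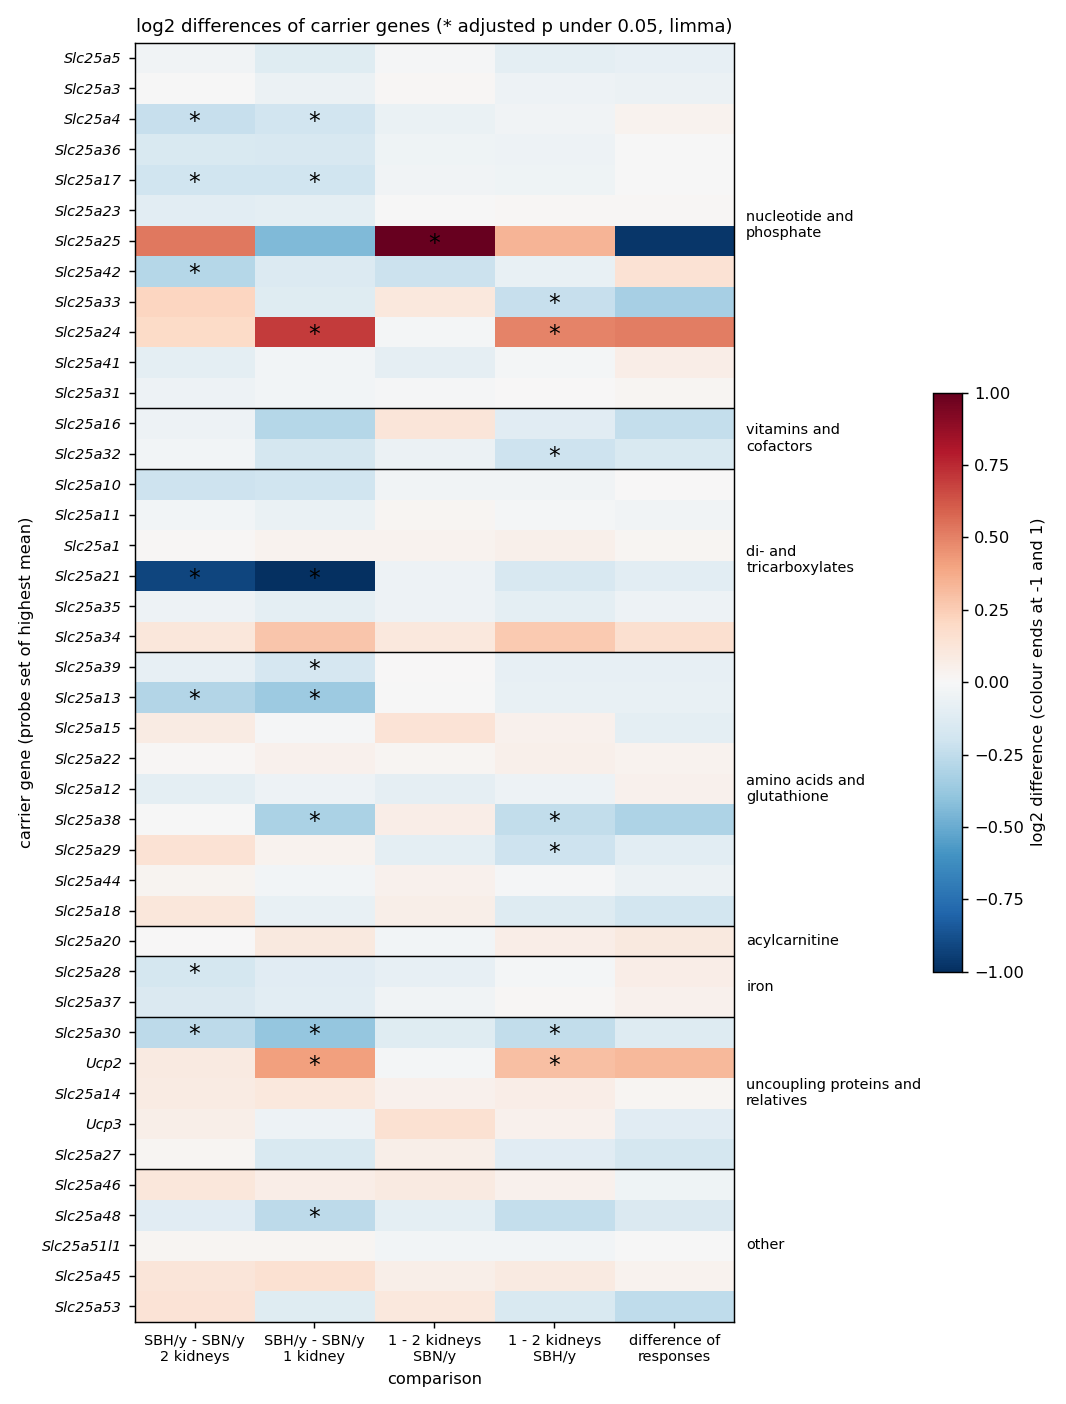
Log2 differences of the 42 carriers (rows, by role) in the 5 comparisons (columns): red is higher, blue is lower, colours end at -1 and 1, and a star marks an adjusted p under 0.05. The column of kidney removal in SBN/y holds 1 star, at Slc25a25, and Slc25a21 is the darkest blue in both strain columns.

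What kidney removal changed was asked first in SBN/y. Of the 42 carriers, 1 was called at an adjusted p under 0.05, Slc25a25, where the background over all 31042 probe sets was 0.168%, with 0.0838% higher and 0.0838% lower. Over the 14217 genes, each read on 1 probe set as the carriers were, it was 0.253%. The call is 2.38% of the carriers, a share that rests on 1 gene. Of the 42 carriers, 33 lay within 0.1 of no difference, and 41 lay within 0.25. The shares of all genes within these limits were not counted. The second largest difference was that of Slc25a42, -0.22. The median difference over the carriers was -0.01, and 0.0046 over all genes. Without adjustment, 3 of the 42 carriers had a p under 0.05, beside 1189 of the 14217 genes.

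Slc25a25, the calcium-sensitive ATP-Mg/phosphate carrier, read 7.04, 6.72, 7.01, 6.84 and 7.18 in the 5 SBN/y rats with 2 kidneys. It read 8.34, 8.09, 8.61, 8.29, 7.80 and 8.49 in the 6 SBN/y rats with 1 kidney. Every SBN/y rat with 1 kidney lay above every one with 2 kidneys, a separation seen in 1.26% of probe sets, 1.65% of genes and 1 of the 42 carriers, and the means were 6.96 ± 0.18 (SD, n = 5) and 8.27 ± 0.29 (SD, n = 6). The rise was 1.31 ± 0.22 (SE), which is 2.48-fold, with an adjusted p of 0.00699. It kept its call in every alternative tried, where it ran from 1.24 to 1.57 with adjusted p from 0.000196 to 0.0297. Slc25a25 was singled out for this same difference on these same arrays. Its call, separation and steadiness therefore describe the chosen gene and are no separate support for the choice.

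In SBH/y the same carrier had a wider spread. The 6 rats with 2 kidneys read from 7.01 to 8.18 with a median of 7.29 and a mean of 7.49 ± 0.46 (SD, n = 6), and the 6 with 1 kidney read from 7.25 to 8.94 with a median of 7.69 and a mean of 7.82 ± 0.58 (SD, n = 6). The groups overlapped, and the difference of 0.34 ± 0.21 (SE) had an adjusted p of 0.478. Against SBN/y, SBH/y differed by 0.53 with 2 kidneys (adjusted p 0.154) and by -0.44 with 1 kidney (adjusted p 0.185). The test of whether surgery acted differently in the 2 strains gave -0.97 ± 0.30 (SE) with an adjusted p of 0.237, so the difference between strains was not called.

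One array weighed on those values. Replicate 3 of SBH/y with 1 kidney read 8.94, where the other 5 rats read from 7.25 to 7.77. Without it, the strain difference of the response was -1.20 with an adjusted p of 0.0132, the difference of SBH/y from SBN/y with 1 kidney was -0.67 with an adjusted p of 0.00548, and with 2 kidneys 0.53 with an adjusted p of 0.0420. The response in SBH/y was then 0.11 with an adjusted p of 0.826, and that in SBN/y had an adjusted p of 0.000472. With the GAPDH difference as a covariate, the level with 2 kidneys in SBH/y was higher by 0.81, with an adjusted p of 0.0277. Over the alternatives tried, the strain difference of the response ran from -1.20 to -0.83 with adjusted p from 0.0132 to 0.371.

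**Figure D2:**
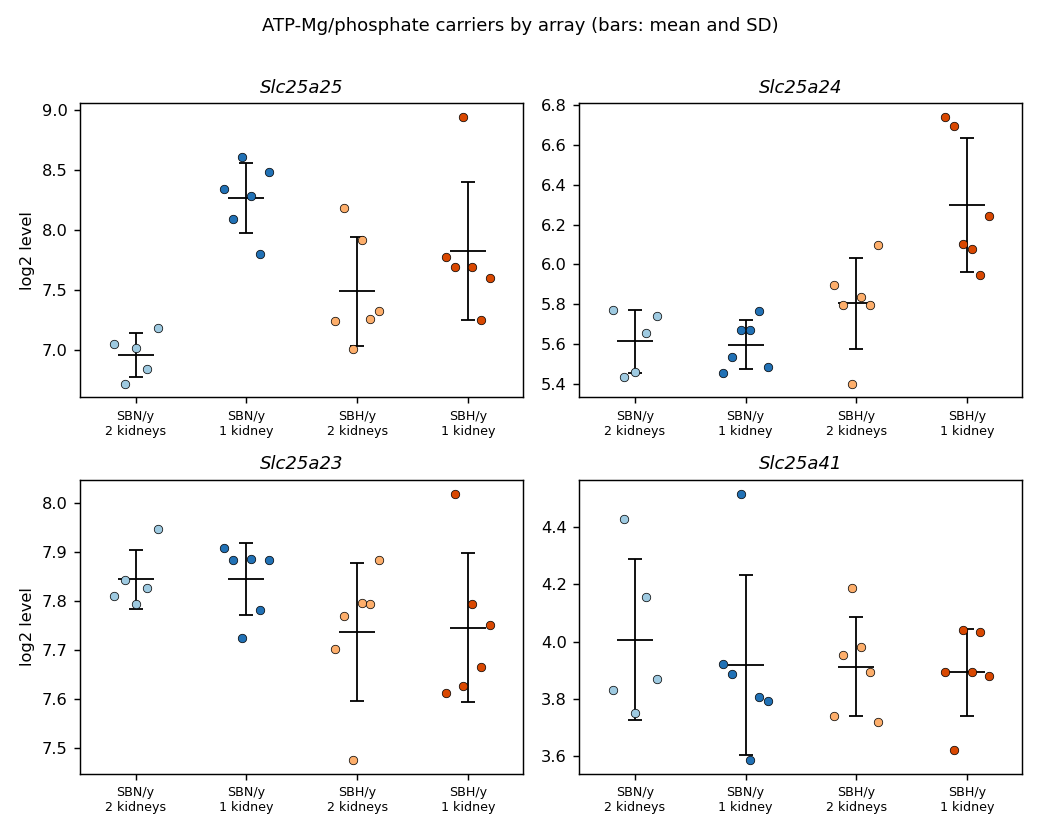
Log2 level of the ATP-Mg/phosphate carriers in every rat, by group, with the mean and SD of each group. Slc25a25 is higher in all 6 SBN/y rats with 1 kidney than in all 5 with 2 kidneys, and Slc25a24 is highest in SBH/y with 1 kidney.

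The paralogs of Slc25a25 were not called in SBN/y. Slc25a24, a calcium-sensitive ATP-Mg/phosphate carrier, was higher in SBH/y after surgery. It read 5.44 to 5.77 in SBN/y with 2 kidneys (median 5.66) and 5.46 to 5.76 with 1 kidney (median 5.60), with means of 5.61 ± 0.16 (SD, n = 5) and 5.60 ± 0.12 (SD, n = 6). The SBH/y rats read 5.40 to 6.10 with 2 kidneys (median 5.82) and 5.95 to 6.74 with 1 kidney (median 6.17), with means of 5.81 ± 0.23 and 6.30 ± 0.34 (SD, n = 6 each). The surgery groups of SBH/y overlapped. The difference was 0.49 ± 0.12 (SE) with an adjusted p of 0.0106, and the strain difference of the response, 0.51 ± 0.17, had an adjusted p of 0.301. With the GAPDH difference as a covariate its adjusted p was 0.0545, and without the arrays of lowest and highest spread over probe sets, replicate 3 of SBH/y with 2 kidneys and replicate 2 of SBH/y with 1 kidney, the difference was 0.34 with an adjusted p of 0.0848.

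Against SBN/y with 1 kidney, Slc25a24 was higher in SBH/y by 0.70 ± 0.12 (SE), with an adjusted p of 8.01e-05 and no overlap between the groups. The macrophage and lymphocyte markers rose in the same group. Slc25a23, another of the calcium-sensitive carriers, had group means of 7.84, 7.84, 7.74 and 7.75 and no call: its differences lay between -0.11 and 0.01, with adjusted p from 0.433 to 0.999. Slc25a41 read under the array median in all groups, at 3.89 to 4.01, and had no call.

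In SBH/y, kidney removal called 7 of the 42 carriers, 2 higher and 5 lower, which is 16.7%, where the background over all probe sets was 5.04%, with 3.06% higher and 1.97% lower, and 7.16% over genes. The groups did not overlap for 2 of the 42 carriers, Ucp2 and the dim Slc25a27, which is 4.76%, against 2.84% of probe sets and 4.31% of genes. Ucp2 and Slc25a24 rose, and Slc25a38, Slc25a29, Slc25a33, Slc25a30 and Slc25a32 fell. The median over the carriers was -0.03, and 0.0036 over all genes. Slc25a25 and 34 others were not called, and 38 of the 42 lay within 0.25 of no difference, a share not counted over all genes.

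Ucp2, an uncoupling protein of the inner membrane that is also found in immune cells, rose in SBH/y after surgery. It read 6.34 to 6.50 in SBN/y with 2 kidneys (median 6.35) and 6.22 to 6.49 with 1 kidney (median 6.39), where the difference was -0.02. The SBH/y rats read 6.38 to 6.60 with 2 kidneys (median 6.46) and 6.70 to 6.94 with 1 kidney (median 6.78). All 6 operated SBH/y rats lay above all other rats of the study. The rise was 0.30 ± 0.06 (SE), from 6.49 ± 0.09 to 6.79 ± 0.08 (SD, n = 6 each), with an adjusted p of 0.00117, and it was called in every alternative, at 0.25 to 0.32. The difference from SBN/y with 1 kidney, which shares the operated SBH/y arrays, was 0.41 ± 0.06 (SE) with an adjusted p of 4.27e-06. The test of unequal responses gave 0.32 ± 0.08 (SE) with an adjusted p of 0.104. The macrophage marker mean of the operated SBH/y rats, 7.48 to 7.85, also lay above that of all other rats, and its part in the rise of Ucp2 was not tested.

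**Figure D3:**
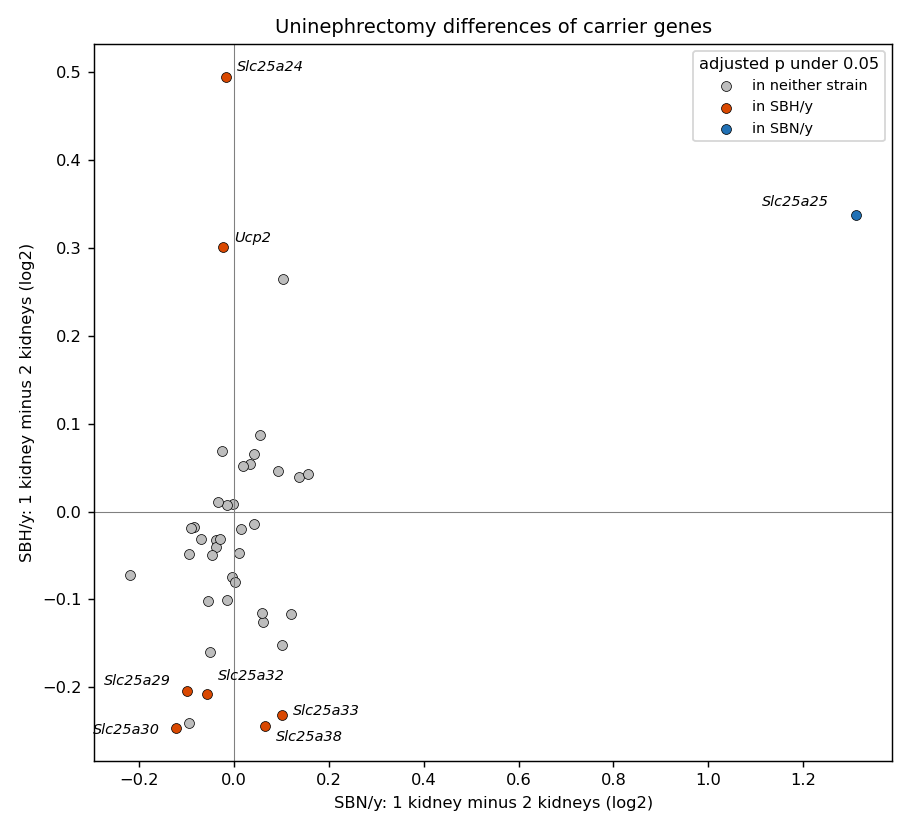
Difference after kidney removal of each of the 42 carriers in SBN/y (horizontal) and SBH/y (vertical), in log2 units, coloured by the strain in which the adjusted p was under 0.05. Slc25a25 lies alone at the right, Slc25a24 and Ucp2 at the top near 0 on the SBN/y axis, and the 5 carriers that fell in SBH/y at the bottom.

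The 5 carriers that fell in SBH/y fell by 0.20 to 0.25. Slc25a30, a relative of the uncoupling proteins first described in kidney, read 8.95 to 9.33 with 2 kidneys (median 9.20) and 8.75 to 9.03 with 1 kidney (median 8.97). The groups overlapped, and the difference was -0.25 ± 0.07 (SE) with an adjusted p of 0.0379. The second probe set of this gene gave -0.54.

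Slc25a38, the glycine carrier needed for heme synthesis, read 6.58 to 6.89 with 2 kidneys (median 6.70) and 6.34 to 6.61 with 1 kidney (median 6.47). Its groups overlapped by a narrow margin, and the difference was -0.24 ± 0.06 (SE) with an adjusted p of 0.0201. In SBN/y it read 6.71 and 6.78 on average, and the difference of responses, -0.31 ± 0.09 (SE), had an adjusted p of 0.205.

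Slc25a29, a carrier of basic amino acids, read 6.58 to 6.85 with 2 kidneys (median 6.76) and 6.49 to 6.59 with 1 kidney (median 6.54), again with a narrow overlap. The difference was -0.20 ± 0.06 (SE) with an adjusted p of 0.0352. Slc25a33, the pyrimidine nucleotide carrier whose promoter window is printed above, read 6.07 to 6.33 (median 6.20) and 5.82 to 6.18 (median 5.97), and differed by -0.23 ± 0.07 (SE) with an adjusted p of 0.0366. Its groups overlapped. In SBN/y Slc25a33 read 5.81 to 6.09 and 5.99 to 6.26, and the difference of responses was -0.33 ± 0.10 (SE) with an adjusted p of 0.18.

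Slc25a32, which carries folate and FAD, had a dim probe set under the array median. It read 3.72 to 4.04 with 2 kidneys (median 3.87) and 3.52 to 3.82 with 1 kidney (median 3.64), with overlap. The difference was -0.21 ± 0.06 (SE) with an adjusted p of 0.0462, and the second probe set of the gene gave 0.02, so its direction depended on the probe set.

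**Figure D4:**
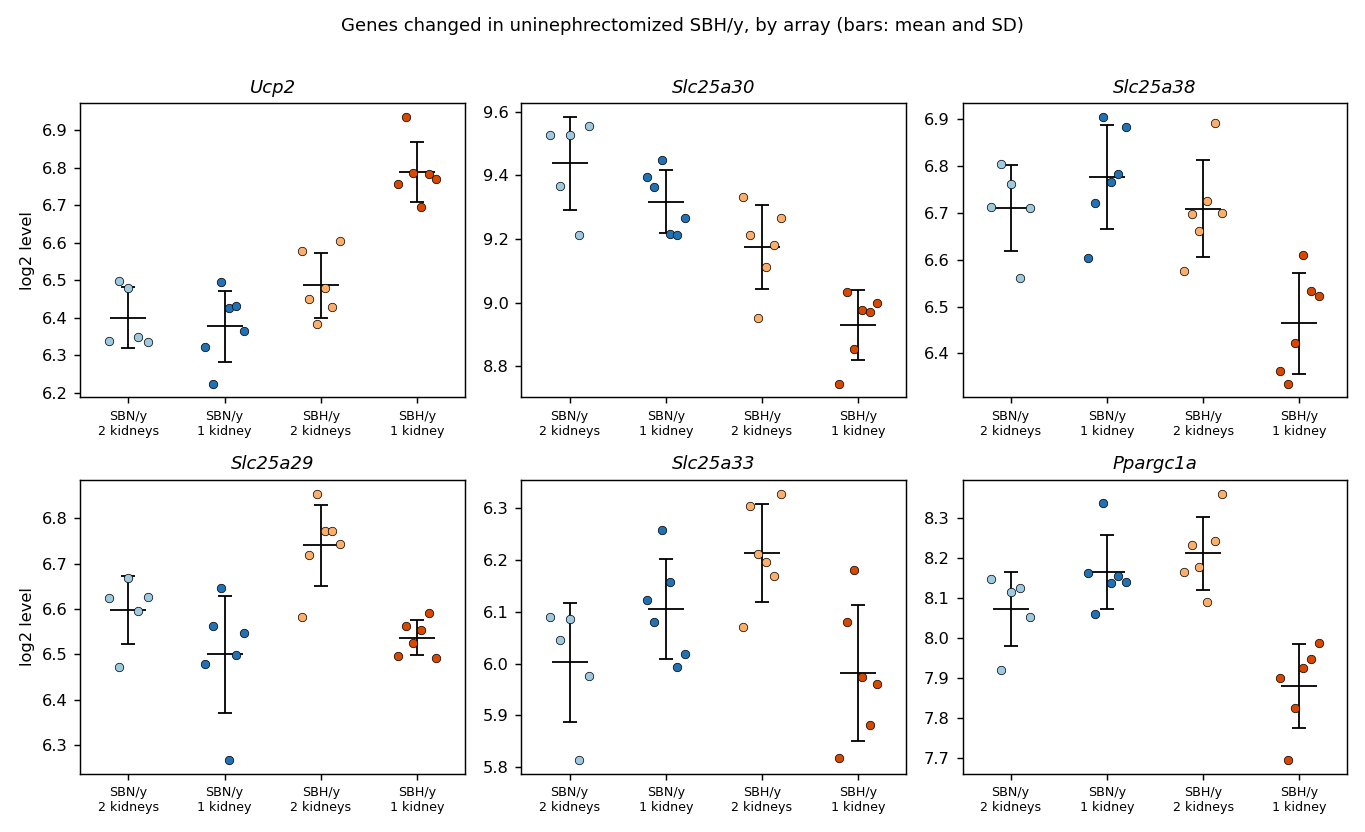
Log2 level in every rat, by group, of Ucp2, Slc25a30, Slc25a38, Slc25a29, Slc25a33 and Ppargc1a, with the mean and SD of each group. The 6 SBH/y rats with 1 kidney are the highest of all rats for Ucp2 and have the lowest of the 4 group means for Slc25a30, Slc25a38, Slc25a33 and Ppargc1a.

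The steadiness of these calls was uneven. When only the SBH/y arrays were fitted, Ucp2 kept its call (adjusted p 0.00789), and the other 6 carriers had adjusted p from 0.0529 to 0.141, with the same differences. With the GAPDH covariate, Slc25a38 (adjusted p 0.0524) and Slc25a33 (0.0875) lost theirs as Slc25a24 did, and without the arrays of lowest and highest spread Slc25a29 (0.103) and Slc25a38 (0.0590) did. The count of 7 became 2 without replicate 1 of SBH/y with 1 kidney, 3 without replicate 2 or 5 of SBH/y with 2 kidneys, and 4 without replicate 3, 4 or 6 of that group or replicate 3 or 6 of SBH/y with 1 kidney. Leaving out 1 array at a time, which gave 23 fits, kept the calls of Ucp2 and Slc25a24 in all of them. Slc25a38 lost its call without replicate 5 of SBH/y with 2 kidneys, or without replicate 1 or 2 of SBH/y with 1 kidney (adjusted p up to 0.0630). Slc25a30 lost it without replicate 1, 2, 5 or 6 of SBH/y with 2 kidneys, or replicate 1 or 3 of SBH/y with 1 kidney (up to 0.124). Slc25a33 lost it without replicate 2, 3, 4 or 6 of SBH/y with 2 kidneys, or replicate 1, 4, 5 or 6 of SBH/y with 1 kidney (up to 0.119). Slc25a29 lost it without any of 10 arrays, replicates 2 to 6 of SBH/y with 2 kidneys and replicates 1 to 4 and 6 of SBH/y with 1 kidney (up to 0.0860). Slc25a32 lost it in 17 of the 23 fits (up to 0.134).

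No carrier passed the test of unequal responses in the 2 strains, where the background was 0.254% of probe sets, 0.209% higher and 0.0451% lower, and 0.408% of genes. Of the 42 carriers, 6 had an unadjusted p under 0.05, beside 1357 of the 14217 genes. The limma test and no other tool was run for it, and without replicate 3 of SBH/y with 1 kidney 1 carrier passed, Slc25a25. By role, and against the 7.16% of genes called in that comparison, kidney removal in SBH/y called 2 of 12 nucleotide and phosphate carriers, 1 higher and 1 lower, and 2 of 9 carriers of amino acids and glutathione, both lower. It called 1 of 2 vitamin carriers, lower, and 2 of 5 uncoupling proteins and relatives, 1 higher and 1 lower. It called none of 6 di- and tricarboxylate carriers, 1 acylcarnitine carrier, 2 iron carriers and 5 carriers of other or unsettled substrate. Slc25a20, the acylcarnitine carrier that feeds fatty acid oxidation, differed by -0.02 in SBN/y and 0.07 in SBH/y. Ucp3 differed by 0.16 ± 0.07 (SE) in SBN/y with an adjusted p of 0.634, and by 0.04 in SBH/y. Slc25a5, the brightest carrier, differed by -0.10 in SBH/y with an adjusted p of 0.197. Slc25a16 differed by 0.12 in SBN/y and -0.12 in SBH/y, both without a call. Slc25a35 differed by -0.05 in SBN/y and -0.10 in SBH/y, and Slc25a53, on a dim probe set, by 0.10 and -0.15, all without a call.

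How the strains differed with equal numbers of kidneys was asked next. With 2 kidneys, 7 of the 42 carriers were lower in SBH/y and none was higher, which is 16.7%, where the background was 9.07% of probe sets, 4.32% higher and 4.75% lower, and 11.0% of genes. With 1 kidney, 10 carriers were called, 2 higher and 8 lower, which is 23.8%, where the background was 14.0% of probe sets, 7.55% higher and 6.43% lower, and 17.7% of genes. The strains did not overlap for 3 carriers with 2 kidneys, 7.14% of them against 7.57% of probe sets and 9.72% of genes. With 1 kidney they did not overlap for 8, which is 19.0%, against 7.62% of probe sets and 9.81% of genes. The median difference over the carriers was -0.01 with 2 kidneys and -0.10 with 1 kidney, while that over all genes was 0.0068 and 0.0060. With 1 kidney 31 of the 42 differences were negative, beside 6787 of 14217 over all genes. With 2 kidneys it was 23 of 42, beside 6752 of 14217. The carriers were read on the same arrays, and these counts were not tested. The 2 comparisons have no arrays in common but share an estimate of the spread. In both, 5 carriers were lower in SBH/y: Slc25a21, Slc25a4, Slc25a13, Slc25a30 and Slc25a17. How many of all genes were called in both was not counted, so this overlap has no background beside it.

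Slc25a21, the carrier of oxoadipate and other oxodicarboxylates from lysine and tryptophan breakdown, differed most. It read 5.95, 6.11, 6.39, 5.84 and 5.77 in SBN/y with 2 kidneys, and 5.83 to 6.15 with 1 kidney (median 5.94). SBH/y rats read 4.86 to 5.31 with 2 kidneys (median 5.08) and 4.81 to 5.15 with 1 kidney (median 4.86). All 12 SBH/y rats lay below all 11 SBN/y rats. The difference was -0.92 ± 0.10 (SE) with 2 kidneys and an adjusted p of 7.58e-08, and -1.03 ± 0.09 (SE) with 1 kidney and an adjusted p of 2.80e-09, which is 2.04-fold lower. Kidney removal itself did not change its level beyond the test in either strain (-0.05 and -0.16).

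Slc25a4, an adenine nucleotide translocator of muscle, heart and kidney, read 10.53 to 10.64 in SBN/y with 2 kidneys (median 10.61) and 10.46 to 10.61 with 1 kidney (median 10.52). In SBH/y it read 10.30 to 10.41 with 2 kidneys (median 10.39) and 10.18 to 10.41 with 1 kidney (median 10.37). The strains did not overlap at either kidney number. The difference was -0.23 ± 0.05 (SE) with an adjusted p of 0.0025 with 2 kidneys, and -0.19 ± 0.05 (SE) with an adjusted p of 0.0060 with 1 kidney. Skeletal muscle markers Ckm, Acta1, Myh4 and Tnnt3 read at or under 3.63 on every array, below the array median, while the Myh1 probe set read 10.94 to 11.31.

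Slc25a13, the aspartate-glutamate carrier of the malate-aspartate shuttle, read 9.37 to 9.69 in SBN/y with 2 kidneys (median 9.47) and 9.04 to 9.38 in SBH/y (median 9.20). The difference was -0.29 ± 0.07 (SE), with an adjusted p of 0.0073 and a narrow overlap. With 1 kidney it read 9.37 to 9.58 (median 9.51) against 8.99 to 9.34 (median 9.12), with no overlap, a difference of -0.37 ± 0.07 (SE) and an adjusted p of 0.0003. Its second probe set gave -0.20 and -0.37.

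Slc25a30 was lower in SBH/y by 0.26 with 2 kidneys (adjusted p 0.0212) and by 0.39 with 1 kidney (adjusted p 0.0002), where the groups did not overlap. In SBN/y it had means of 9.44 ± 0.15 (SD, n = 5) and 9.32 ± 0.10 (SD, n = 6). Slc25a17, a carrier of the peroxisomal membrane for coenzyme A and nucleotides, was lower by 0.20 with 2 kidneys (adjusted p 0.0407) and by 0.20 with 1 kidney (adjusted p 0.0192).

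Some carriers were called at 1 kidney number alone on their brightest probe set. With 2 kidneys, Slc25a42, the coenzyme A carrier, differed by -0.28 ± 0.08 (SE) with an adjusted p of 0.0283, and Slc25a28, mitoferrin 2, by -0.18 ± 0.05 (SE) with an adjusted p of 0.0326. Their means were 6.87 in SBN/y and 6.59 in SBH/y for Slc25a42, and 7.71 and 7.53 for Slc25a28, with overlap. With 1 kidney, Slc25a39, a glutathione carrier, was lower by 0.17 (adjusted p 0.0293) and Slc25a48, a carrier of unsettled substrate, by 0.26 (adjusted p 0.0459), and Slc25a38 by 0.31 (adjusted p 0.000735). The second probe set of Slc25a48 was lower at both kidney numbers, by 0.22 with 2 kidneys (adjusted p 0.0340) and by 0.28 with 1 kidney (adjusted p 0.00198, no overlap). Ucp2 and Slc25a24 were the 2 carriers that were higher. Whether these differences changed with kidney number was covered by the test of unequal responses, which called none. Erythroid markers differed too: 2 of 4 measured markers, Alas2 and Hbb, were lower in SBH/y with 2 kidneys and 3 of 4 with 1 kidney. The marker added with 1 kidney was Slc4a1, also counted above as a collecting duct marker, at 0.03 with 2 kidneys and -0.35 with 1 kidney. Alas2 differed by -0.81 and -0.80, and Hbb by -0.53 and -0.51. The part of the erythroid markers in the results was not tested. The mean of the 7 adipocyte markers was 5.80, 5.56, 5.35 and 5.24 in the order of groups given above, and 3 of the 7 were lower in SBH/y with 2 kidneys. These were Adipoq (-0.31), Fabp4 (-0.83) and Ucp1 (-1.77), and Ucp1 is also counted among the partners further on. The other 4 were not called there: Cidec differed by 0.16, Plin1 by 0.0007, Lep by -0.06 and Cidea by -0.33. The markers of this list therefore did not all go the same way.

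The count of 7 with 2 kidneys became 4 without replicate 3, 4 or 5 of SBN/y or replicate 4 or 5 of SBH/y. Fitting only the 2 groups compared ended the calls of Slc25a17, Slc25a28 and Slc25a30 with 2 kidneys (adjusted p 0.105, 0.0907 and 0.0530) and of Slc25a39 and Slc25a48 with 1 kidney (0.0729 and 0.103). Slc25a42 had -0.18 and an adjusted p of 0.256 with the GAPDH covariate, and the next probe set of Slc25a39 gave -0.12 with an adjusted p of 0.469. Among the strain calls, leaving out single arrays kept Slc25a21, Slc25a4, Slc25a13, Slc25a24, Ucp2 and Slc25a38 in all 23 fits. Slc25a30 with 2 kidneys lost its call without replicate 1, 3 or 5 of SBN/y or replicate 3 of SBH/y (adjusted p up to 0.0714). Slc25a17 lost it with 2 kidneys without replicates 1, 3, 4 and 5 of either strain, each left out alone (up to 0.130), and with 1 kidney without replicate 5 of SBH/y (0.0515). Slc25a42 lost it without replicate 2, 4 or 5 of SBN/y, or 4, 5 or 6 of SBH/y (up to 0.103), and Slc25a28 without replicate 2, 3 or 4 of SBN/y, or 1, 2, 4 or 5 of SBH/y (up to 0.136). Slc25a39 lost it without replicate 1, 2, 4 or 6 of SBN/y with 1 kidney, or 1, 3 or 6 of SBH/y with 1 kidney (up to 0.0846). Slc25a48 lost it in 14 of 23 fits (up to 0.142).

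Several probe sets of a gene did not always give the same strain difference. Slc25a15, an ornithine carrier of the urea cycle, had 6 probe sets. Its brightest gave 0.09 with 2 kidneys and -0.01 with 1 kidney, without a call. Its probe set of second highest mean gave 0.46 and 0.50, and another, of mean 7.84, 0.46 and 0.43, all called, with no overlap between the strains. The remaining ones gave differences of -0.21 to 0.11, none called. Slc25a10, the dicarboxylate carrier, gave -0.21 (adjusted p 0.0801, no overlap) and -0.20 (adjusted p 0.0540) on its brighter probe set, and -0.66 and -0.75 on its dimmer one. The cause of these gaps was not tested.

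**Figure D5:**
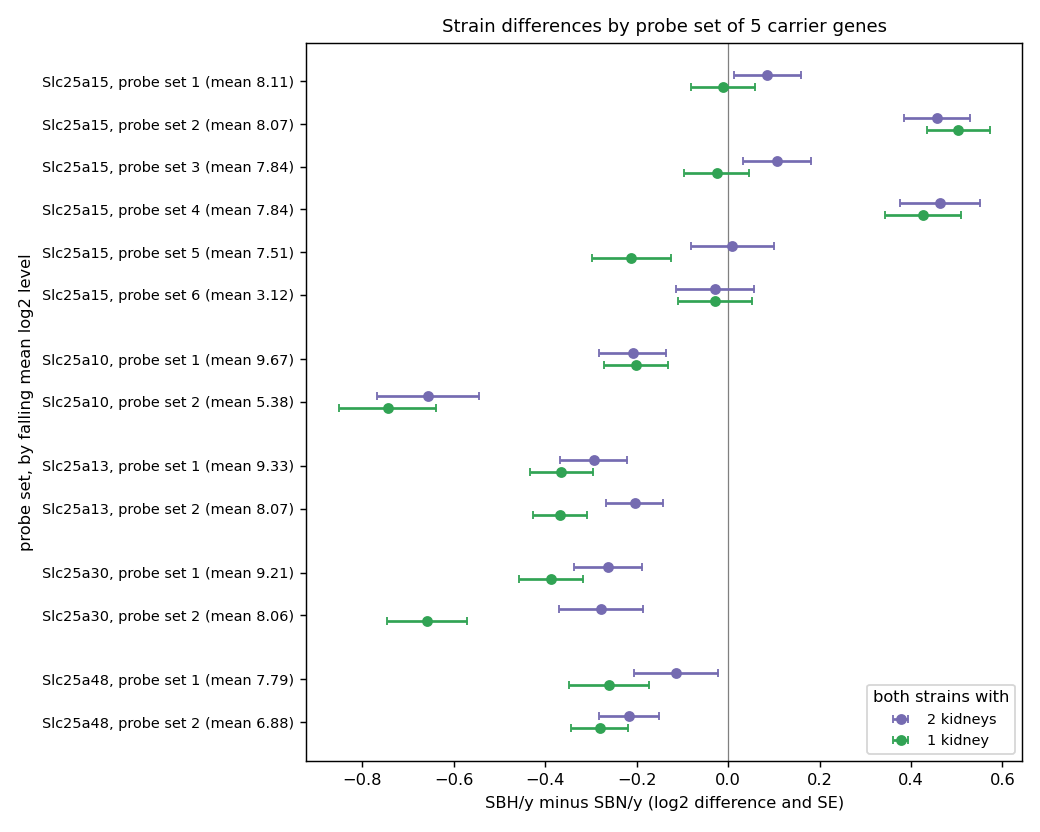
Strain difference, SBH/y minus SBN/y in log2 units with its SE, for each probe set of 5 carriers, with 2 kidneys (purple) and 1 kidney (green). For Slc25a15, 2 of 6 probe sets lie at 0.43 to 0.50 and the others between -0.21 and 0.11.

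Partners of the carriers, such as the enzymes of the shuttles and the regulators of mitochondrial genes, were read from a list of 42 genes, of which 38 were measured. In SBN/y kidney removal called none of them, with 1 at an unadjusted p under 0.05, beside 1189 of the 14217 genes. In SBH/y it called 5, all lower, which is 13.2%, where the background was 7.16% of genes. Mpc1, a subunit of the mitochondrial pyruvate carrier, read 10.99 to 11.18 with 2 kidneys and 10.72 to 10.94 with 1 kidney, with no overlap, and differed by -0.24 ± 0.05 (SE) with an adjusted p of 0.0027. Me1, the cytosolic malic enzyme, read 8.19 to 8.38 and 7.69 to 8.17, with no overlap, and differed by -0.34 ± 0.07 (SE) with an adjusted p of 0.0028. Arg2, the mitochondrial arginase, read 7.57 to 7.78 and 7.10 to 7.59, with overlap, and differed by -0.34 ± 0.08 (SE) with an adjusted p of 0.0120. With the GAPDH difference as a covariate Arg2 gave -0.27 with an adjusted p of 0.0745. Mdh1, the cytosolic malate dehydrogenase, read 11.52 to 11.59 and 11.31 to 11.46, with no overlap, and differed by -0.15 ± 0.04 (SE) with an adjusted p of 0.0412. Mdh1 lost its call in 11 of 23 fits that each left out 1 array: replicate 1 of SBN/y with 1 kidney, replicates 1 to 6 of SBH/y with 2 kidneys, and replicates 1 to 4 of SBH/y with 1 kidney (adjusted p up to 0.124). It also lost the call with only the groups compared (0.138), with the GAPDH covariate (0.106) and without the arrays of lowest and highest spread (0.1004).

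Ppargc1a, the PGC-1α coactivator of mitochondrial biogenesis, was the partner that passed the test of unequal responses. In SBN/y it read 7.92 to 8.15 with 2 kidneys and 8.06 to 8.34 with 1 kidney, with means of 8.07 and 8.17. SBH/y rats read 8.09 to 8.36 with 2 kidneys and 7.69 to 7.99 with 1 kidney, with means of 8.21 and 7.88 and no overlap. It fell in SBH/y by 0.33 (adjusted p 0.000804), and the difference of responses was -0.42 ± 0.09 (SE) with an adjusted p of 0.0259. Without replicate 2 or 5 of SBN/y with 2 kidneys the latter was -0.39 and -0.42, with adjusted p of 0.0648 and 0.0509. With 2 kidneys SBH/y was lower in 5 of the 38 partners, Mdh1, Mdh2, Gpd2, Ucp1 and Ckmt1, which is 13.2% against 11.0% of genes. Ucp1, which is also in the list of adipocyte markers, differed by -1.77 (adjusted p 0.00118) and read 4.45 to 6.89 in SBN/y with 2 kidneys. The part of fat tissue in its difference was not tested. Of the 5, Mdh1 lost its call without replicate 1, 2 or 5 of SBN/y or replicate 1, 2, 3, 4 or 6 of SBH/y, and Mdh2 without replicate 4 or 5 of SBN/y or 1 or 2 of SBH/y (adjusted p up to 0.0889 and 0.0820). Mdh1 lost it also with repeated quantile normalization (0.0613), only the groups compared (0.0744), the GAPDH covariate (0.104) and without the arrays of lowest and highest spread (0.0545). With 1 kidney 13 partners were called, 2 higher and 11 lower, which is 34.2% against 17.7% of genes. Mtch1 and Sfxn1 were higher. Arg2, Ckmt1, Glud1, Gpd2, Mdh1, Mdh2, Me1, Mpc1, Ppara, Ppargc1a and Ucp1 were lower. Ppara, on a dim probe set, lost its call in 16 of the 23 fits that each left out 1 array (adjusted p up to 0.115). Sfxn1 lost it in 4 of them (up to 0.0941). Over all alternatives Ppara lost it in 19, Sfxn1 in 5 and Glud1 in 2.

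Genes with levels most like those of Slc25a25 over the 23 arrays were taken as a description. Genes whose symbol begins with LOC or RGD were left out of these rankings. The arrays share strain and surgery groups, so a likeness in level also holds the differences between groups. The 5 closest were Errfi1 (r = 0.813), Zfp36 (r = 0.749), Klf9 (r = 0.744), Rcan1 (r = 0.733) and Irs2 (r = 0.727), and the 3 most opposed C12h7orf50 (r = -0.799), Palm (r = -0.769) and Dock8 (r = -0.734). Errfi1 had means of 9.16 and 10.01 in SBN/y, a difference of 0.85 with an adjusted p of 0.0530. Rcan1 rose in both strains after surgery, by 0.69 in SBN/y (adjusted p 0.00242) and by 0.61 in SBH/y (adjusted p 0.000157). After each group mean was taken off, the 5 closest were Alas1 (r = 0.798), Amacr (r = 0.772), Slc30a1 (r = 0.726), Crem (r = 0.706) and Slc25a5 (r = 0.702), itself a carrier. Replicate 3 of SBH/y with 1 kidney, where Slc25a25 read 8.94 against 7.25 to 7.77 in the others of its group, is in all these r. Its weight on them was not tested. The other carriers had r with Slc25a25 from -0.31 to 0.62 in level, the highest being Slc25a15.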

How the data were processed

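RNA from 23 male rat kidneys was measured on Affymetrix arrays. The deposited values are log2 levels per probe set, made by the authors with RMA, with GCOS also named, per the submitters' processing notes, and with versions not given in the sources used here. They run from 1.89 to 13.67, and array medians from 4.65 to 4.69. The 57 control probe sets were left out, and 31042 were tested with limma 3.58.1 in R 4.3.3, in 1 fit of 4 group means, with Benjamini-Hochberg adjustment over all probe sets and a threshold of 0.05. Each gene was read on its probe set of highest mean. Of the probe sets 20826 have 1 symbol, 436 several and 9780 none, and 20758 matched RefSeq (GRCr8), from which promoters came. Named were every carrier called in any comparison, Slc25a25 and its paralogs, the 3 brightest and the 3 dimmest, per role group the carrier of smallest p after surgery, the genes most like or opposed to Slc25a25, and called partners. Slc25a10 and Slc25a15, and the other probe sets of a gene, were named after their values were seen. The members and lists were chosen with earlier results of these data known. The fit was tested on simulated data: at the SBN/y surgery comparison over 31042 probe sets, 97 of 100 changes of 0.5 and 100 of 100 of 1 were recovered, with 13 false calls. The simulated noise was normal and independent between probe sets and arrays. Arrays that stand apart and differences in RNA integrity were not simulated, so these rates may not hold for the real arrays. Alternatives were repeated quantile normalization, leaving out dim probe sets, limma's trended and robust variance, a fit of the compared groups alone, 1 probe set per gene, the replicate block, the GAPDH covariate, the next probe set, each array left out, and, chosen after seeing the data, leaving out the arrays of lowest and highest spread. The number of arrays limits the precision.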

Additional observations from a re-analysis of the deposited data

Results flagged for a closer look

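In groups of 5 or 6 rats, 1 array stood apart from the others of its group for 10 of the 116 combinations of named carrier and group, where chance gives about 1 in 20. Slc25a25 read 8.94 in replicate 3 of SBH/y with 1 kidney, where the others read 7.25 to 7.77. Ucp2 read 6.94 in replicate 2 of that group, where the others read 6.70 to 6.79. Slc25a13 read 9.37 in replicate 4 of SBN/y with 1 kidney, where the others read 9.50 to 9.58. Slc25a5 read 11.97 in replicate 5 of SBH/y with 2 kidneys, against 12.03 to 12.06. Slc25a16 read 7.05 in replicate 5 of SBN/y with 1 kidney, against 6.97 to 6.99, and 6.42 in replicate 3 of SBH/y with 2 kidneys, against 6.83 to 6.93. The other 4 were dim probe sets: Slc25a41 at 4.52 in replicate 3 of SBN/y with 1 kidney, against 3.58 to 3.92, Slc25a31 at 3.39 in replicate 2 of SBN/y with 2 kidneys, against 2.85 to 2.95, and at 3.10 in replicate 5 of SBH/y with 1 kidney, against 2.88 to 2.96, and Slc25a27 at 3.33 in replicate 1 of SBH/y with 2 kidneys, where the other 5 had the same value of 3.14.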

How the results depend on the processing

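Of 25 called differences of carriers, 12 kept their call in every alternative run and 13 lost it in some, and of 24 of partners 16 kept it and 8 lost it. The count of carriers called after kidney removal in SBN/y was 1 in every alternative. In SBH/y it was 7, and became 1 with only the groups compared, 4 with the GAPDH covariate, 4 without the arrays of lowest and highest spread, and 2 to 7 with 1 array left out. The count between strains with 2 kidneys was 7 and ran from 4 to 9 with 1 array left out, and with 1 kidney it was 10 and ran from 8 to 12. The count of unequal responses was 0 and ran from 0 to 1. The median over carriers between strains with 1 kidney was -0.10, and -0.0774 with the GAPDH covariate, and that of unequal responses was -0.04, and -0.066 without the arrays of lowest and highest spread. Slc25a32 reversed, to 0.0191, on its next probe set. The cause of these changes was not tested. Replicate numbers were not used as pairs in the main fit: 7 of 33 same-numbered pairs had a correlation over 0.1 (range -0.27 to 0.26). Arrays of different numbers were not compared, so this does not show whether replicate numbers mark a shared litter or batch. With the replicate block, the counts were 6, 10, 1, 5 and 0 for the strain comparisons with 2 and 1 kidney, surgery in SBN/y and in SBH/y, and unequal responses. Dim probe sets and small changes are limited by signal over background.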
